A study of Mus musculus with 7 samples.

Results

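The genes described here encode the proteins of the cytosolic ribosome. They were taken from the gene table by symbol, as the Rpl and Rps genes with Rplp0, Rplp1, Rplp2 and Rpsa, without rows named as -ps or -rs copies and without the Rps6k kinases. The rule found 84 genes among 36666 rows, of which 48 belong to the large subunit, 33 to the small subunit and 3 to the P stalk. RNA had been sequenced from cerebral cortex of C57BL/6 mice, in 3 samples from young adults and 4 samples from embryos at embryonic day 17. The labels name no transgene, treatment or other allele in either group, and give no exact adult age.

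Ribosomal proteins are made in balanced amounts, assembled onto ribosomal RNA in the nucleolus and exported as a small and a large subunit. The small subunit reads the mRNA, and the large subunit joins amino acids and carries the P stalk, which recruits elongation factors. The mRNAs of mammalian ribosomal proteins typically start with a C followed by a run of pyrimidines, the 5′ TOP element, through which growth signals by way of mTOR and Larp1 set their translation. Several members have paralogs that are used in particular tissues or that take part in other functions.

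The start regions are shown because they hold the sequence feature the family is known for. RefSeq promoters of build GRCm38.p6, which run from 250 bases before to 50 bases after the annotated start, were matched by symbol for 63 of the 84 genes. A run of at least 8 pyrimidines (C or T in any order, on the strand of the gene), read between 10 bases before and 20 bases after the start, was held by 21 of the 63 (33.3%), against 11.1% of all other genes with a promoter. The motif CCGGAAG, known as an ETS-type site and searched on both strands (CTTCCGG on the other), was held by 24 of the 63 within the 300 bases (38.1%), against 9.05% of all other genes. A match is a description of the letters, and its part in any difference was not tested. Runs shorter than 8 bases, or away from the annotated start, were not counted. The 33.3% is therefore not the share of members with a TOP element. In Rplp0, for example, the longest run in the searched stretch was 7 bases. The windows below run 5′ to 3′ from 50 bases before to 20 bases after the start, with a qualifying pyrimidine run in capitals, and are given for 6 genes that were lower in adult, then 3 that were not called, then Rpl3l.
Rps12: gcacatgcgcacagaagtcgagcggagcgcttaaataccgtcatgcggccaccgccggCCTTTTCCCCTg
Rps18: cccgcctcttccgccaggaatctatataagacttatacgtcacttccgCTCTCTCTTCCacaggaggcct
Rpl7a: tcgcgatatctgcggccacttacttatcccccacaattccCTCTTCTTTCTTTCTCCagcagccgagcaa
Rps6: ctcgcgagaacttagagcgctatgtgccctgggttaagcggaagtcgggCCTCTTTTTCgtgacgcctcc
Rplp0: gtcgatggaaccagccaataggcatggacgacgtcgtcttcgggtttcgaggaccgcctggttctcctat
Rpl22: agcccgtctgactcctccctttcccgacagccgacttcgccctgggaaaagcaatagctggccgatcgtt
Rpl22l1: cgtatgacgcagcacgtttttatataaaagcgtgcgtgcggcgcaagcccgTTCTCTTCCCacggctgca
Rps15: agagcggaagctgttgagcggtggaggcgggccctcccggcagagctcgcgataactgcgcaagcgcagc
Rpl24: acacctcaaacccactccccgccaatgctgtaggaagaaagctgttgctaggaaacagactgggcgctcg
Rpl3l: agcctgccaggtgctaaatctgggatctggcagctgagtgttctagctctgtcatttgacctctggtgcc
Rps12, Rps18, Rpl7a, Rps6 and Rpl22l1 have a qualifying run between 10 bases before and 20 bases after the start. Rplp0, Rpl22, Rps15, Rpl24 and Rpl3l do not. Runs outside that stretch were not searched and stay in lower case, such as ctcctccctttccc in Rpl22. The Rpl7a run is marked only from 10 bases before the start, although pyrimidines continue upstream of it. The Rps12 window lies at chr10:23787190-23787259 on the minus strand. The Rps18 window lies at chr17:33955646-33955715 on the minus strand. The Rpl7a window lies at chr2:26910757-26910826 on the plus strand. The Rps6 window lies at chr4:86857348-86857417 on the minus strand. The Rplp0 window lies at chr5:115559417-115559486 on the plus strand. The Rpl22 window lies at chr4:152325676-152325745 on the plus strand. The Rpl22l1 window lies at chr3:28805458-28805527 on the plus strand. The Rps15 window lies at chr10:80292381-80292450 on the plus strand. The Rpl24 window lies at chr16:55966225-55966294 on the plus strand. The Rpl3l window lies at chr17:24727776-24727845 on the plus strand. Among promoters of members lower in adult, 20 of 56 held a run (35.7%), and 1 of the 4 members not called did.

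Recovered read totals in genes were between 18444271 and 23606525 per sample. Counts were known for every member, and 80 of the 84 genes had at least 100 reads in every sample. Markers of cortical neurons gave a summed level of 1573 to 1686 reads per 1000000 reads in genes (CPM) in adult samples and 1625 to 1726 CPM in embryonic samples, so the labelled tissue was present in both groups. Cell cycle markers (10 of 10 lower in adult) summed to 40.28 to 48.59 CPM in adult samples and 465.6 to 640.9 CPM in embryonic samples. Markers of young neurons (4 of 4 lower) summed to 675.5 to 804.3 CPM in adult samples and 4945 to 5172 CPM in embryonic samples. Oligodendrocyte markers (8 of 8 higher) summed to 4200 to 7526 CPM in adult samples and 61.48 to 67.75 CPM in embryonic samples. Astrocyte markers (6 of 6 higher) summed to 4755 to 5790 CPM in adult samples and 209.6 to 220.9 CPM in embryonic samples. Microglial markers (6 of 6 higher) summed to 267.9 to 268.9 CPM in adult samples and 23.1 to 26.98 CPM in embryonic samples. Endothelial markers (4 of 5 higher) summed to 194.7 to 203.5 CPM in adult samples and 64.09 to 74.19 CPM in embryonic samples. Choroid plexus markers (5 of 5 higher) summed to 566.7 to 692.9 CPM in adult samples and 0.759 to 1.835 CPM in embryonic samples. Erythroid markers (4 of 5 lower) summed to 365.0 to 918.9 CPM in adult samples and 1012 to 1539 CPM in embryonic samples. The part of these cell types in the results on ribosomal proteins was not tested, and in whole tissue fewer cells of a type and less RNA per cell cannot be told apart.

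Ribosomal protein mRNA took up 0.585%, 0.609% and 0.604% of the reads in genes in the 3 adult samples, against 1.25%, 1.28%, 1.36% and 1.19% in the 4 embryonic samples. Every adult share lay below every embryonic one. The mean was 0.599% ± 0.0125 in adult samples (SD, n = 3) and 1.27% ± 0.0731 in embryonic samples (SD, n = 4), a ratio of 0.472 (exact two-sided permutation test, p = 0.05714, the smallest that 3 against 4 samples can give). Small subunit genes took 0.225% ± 0.00548 in adult samples and 0.510% ± 0.0337 in embryonic samples (SD, n = 3 and 4). Large subunit and stalk genes together took 0.375% ± 0.00863 in adult samples and 0.761% ± 0.0397 in embryonic samples (SD, n = 3 and 4).

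Ribosomal protein genes have many near-identical processed copies, and reads can be assigned to a copy in place of the gene. The 151 rows named as -ps copies of these genes took 0.649% ± 0.0190 of reads in adult samples and 1.32% ± 0.0758 in embryonic samples (SD, n = 3 and 4), a ratio of 0.492. These rows therefore held about as many reads as the genes themselves in either group, and the level of any single member is uncertain to that extent. Of the copies, 126 were tested, of which 112 were lower and 1 was higher in adult. Among all genes tested, 33.9% were lower and 35.8% higher. With the copies added, the share was 1.25% ± 0.0283 in adult samples and 2.59% ± 0.148 in embryonic samples, a ratio of 0.482.

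**Figure D1:**
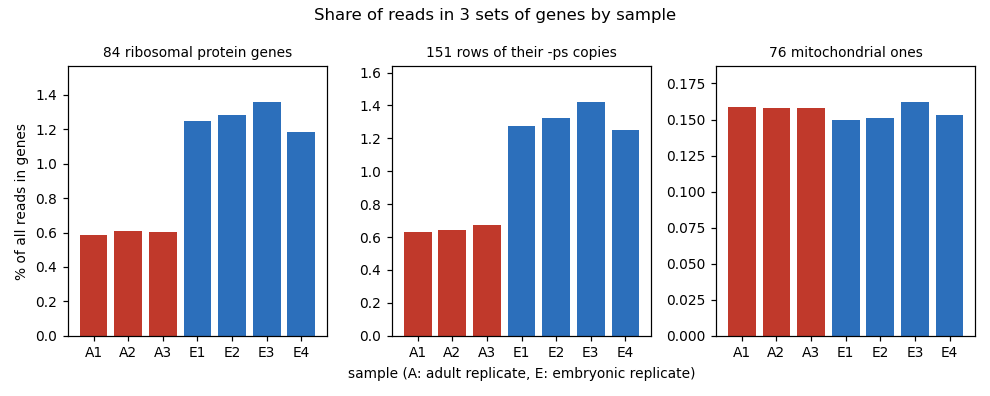
Each bar is the percentage of all reads in genes, in one sample, that fell in a set of genes: the 84 ribosomal protein genes (left), the 151 rows of their -ps copies (middle) and 76 mitochondrial ribosomal protein genes (right). Adult bars (red) are at 0.585% to 0.609% and embryonic bars (blue) at 1.19% to 1.36% in the left panel, while the groups are at similar heights in the right panel.

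Across the genes, 82 of the 84 could be tested and 76 were lower in adult (limma on the deposited values, Benjamini-Hochberg adjusted p under 0.05 over 22828 genes). That is 92.7% of the tested members, against 33.9% of all genes tested, where 69.7% were called in either direction. Rpl3l was the 1 member called higher, against 35.8% of all genes, and Rps21, Rps15, Rpl22l1, Rplp1 and Rpl24 were not called. The median difference, adult minus embryonic on the deposited log2-like scale, was -0.96 over the members and 0.03 over all genes tested. In CPM, the median member stood at 48.0% of its embryonic level. A difference of at least 1 downwards was called for 36 members, against 15.6% of all genes tested, and 10 called members fell by less than 0.5.

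The adult CPM values of 76 members all lay below all their embryonic values, against 36.3% of all genes tested. With Rpl3l, the groups did not overlap in either direction for 77 members, against 69.4% of all genes tested. The 76 were the members called lower except Rpl36al, whose groups overlapped, together with Rps21. The small subunit had 31 of 33 genes lower with a median difference of -1.03, and the large subunit had 43 of 46 tested genes lower with a median of -0.86. Of the stalk genes, Rplp0 and Rplp2 were lower and Rplp1 was not called. The members lie on 19 chromosomes, and 22 of them overlap exons of another gene in GENCODE M21. Of the 60 tested members without such an overlap, 56 were lower and the median was -0.96.

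**Figure D2:**
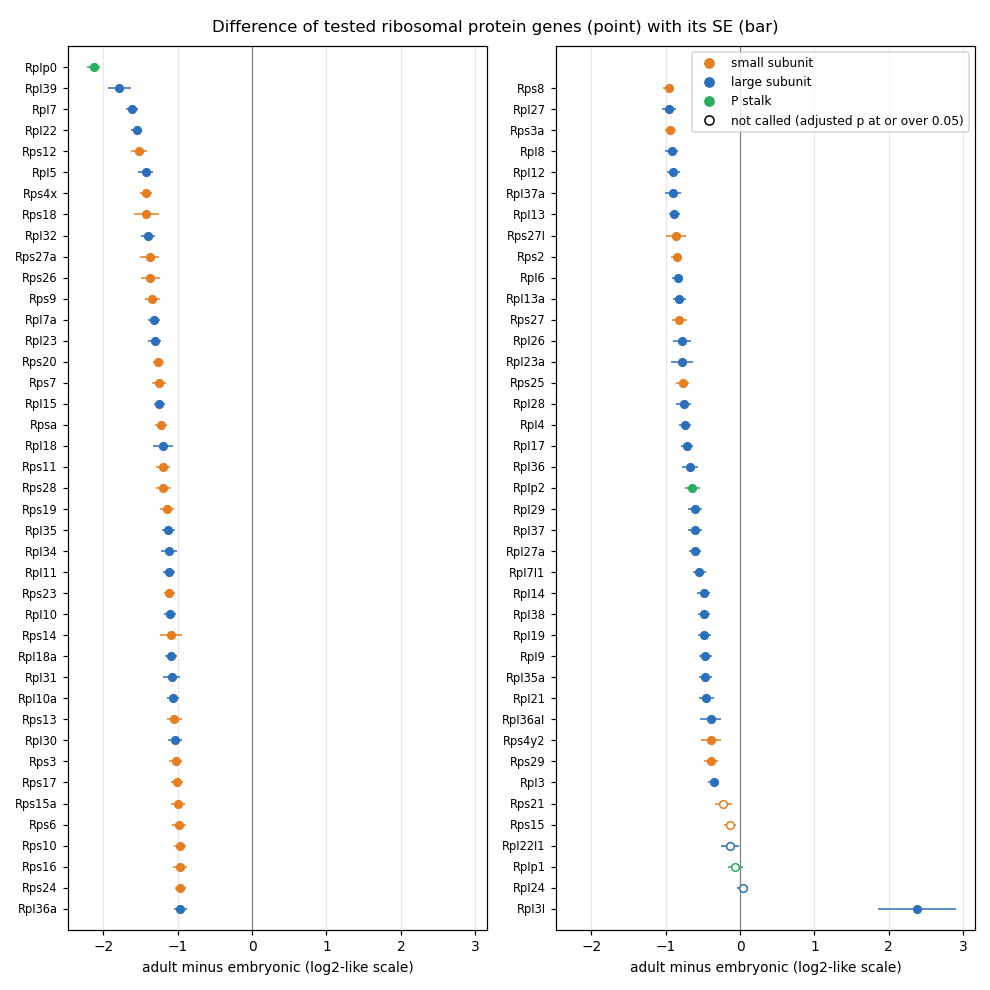
Adult minus embryonic difference on the deposited log2-like scale (x axis) for tested members (rows, sorted from the largest fall), with points coloured by subunit, bars giving the SE, and open points for genes not called. Points run from -2.13 for Rplp0 to 0.04 for Rpl24, with Rpl3l apart at 2.38.

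Rplp0, the core of the stalk that anchors the P1 and P2 proteins, fell the most. It was at 122.2, 151.0 and 132.8 CPM in adult samples, against 626.9, 620.9, 662.4 and 607.5 CPM in embryonic samples, so the groups lay far apart. Its adult mean was 21.5% of the embryonic one, and the difference was -2.13 ± 0.08 (SE, limma adjusted p = 3.854e-11). Rplp2, which forms dimers with Rplp1 on this core, was at 33.12, 39.06 and 29.03 CPM in adult samples, against 56.39, 54.22, 59.00 and 54.06 CPM in embryonic samples. It fell by 0.64 ± 0.10 (SE, limma adjusted p = 5.329e-05), less than the median member.

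Rplp1 was at 169.6, 211.6 and 162.6 CPM in adult samples, against 207.2, 178.9, 200.1 and 212.8 CPM in embryonic samples. The groups overlapped, and the difference was -0.06 ± 0.10 (SE, limma adjusted p = 0.599). The 3 stalk genes thus had differences of -2.13, -0.64 and -0.06, in the order Rplp0, Rplp2 and Rplp1. Whether these differ from one another was not tested.

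Rps12, a small subunit protein, was at 29.85, 32.24 and 39.72 CPM in adult samples, against 92.22, 106.8, 117.8 and 99.67 CPM in embryonic samples, a difference of -1.51 ± 0.11. Rps4x, the X-linked copy of the small subunit protein S4, was at 76.01, 69.90 and 78.65 CPM in adult samples, against 210.5, 208.9, 237.6 and 203.6 CPM in embryonic samples, a difference of -1.43 ± 0.08. In both of these genes no adult sample reached the lowest embryonic one.

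Rpl39, a short protein of the large subunit exit tunnel, was at 17.80, 22.88 and 33.78 CPM in adult samples, against 81.65, 91.78, 93.49 and 93.25 CPM in embryonic samples. The adult samples were more spread than the embryonic ones, and the difference was -1.79 ± 0.16. Rpl7, a large subunit protein, was at 67.90, 71.80 and 83.00 CPM in adult samples, against 238.6, 245.6, 248.9 and 235.7 CPM in embryonic samples, a difference of -1.61 ± 0.08. Rpl22, an RNA-binding protein of the large subunit that is dispensable for general translation, was at 56.99, 53.88 and 56.35 CPM in adult samples, against 165.1, 168.5, 189.7 and 175.4 CPM in embryonic samples. Its difference was -1.55 ± 0.07, and its adult samples lay close together.

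Rpl5, which binds 5S ribosomal RNA and, with Rpl11, the p53 regulator Mdm2, was at 93.86, 97.60 and 125.8 CPM in adult samples, against 278.5, 306.1, 327.5 and 293.0 CPM in embryonic samples. The difference was -1.43 ± 0.10, with no overlap. Its exons overlap those of Fam69a, and no source at hand says whether reads were counted by strand. Rpl11, its partner, had a difference of -1.12.

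Rps6, the small subunit protein that the S6 kinases phosphorylate, was at 145.5, 150.3 and 175.4 CPM in adult samples, against 313.4, 349.9, 366.1 and 289.7 CPM in embryonic samples. Its difference of -0.98 ± 0.10 (SE, limma adjusted p = 5.742e-07) was close to the median member. Rpsa, a small subunit protein also described as a laminin receptor, was at 142.2, 162.4 and 145.9 CPM in adult samples, against 379.4, 364.9, 403.0 and 341.4 CPM in embryonic samples. It fell by 1.22 ± 0.08 (SE, limma adjusted p = 1.045e-08). Rpl8, a large subunit protein close to the peptidyl transferase centre, was at 204.9, 250.3 and 219.4 CPM in adult samples, against 455.5, 469.6, 467.3 and 408.0 CPM in embryonic samples, a difference of -0.92 ± 0.09.

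**Figure D3:**
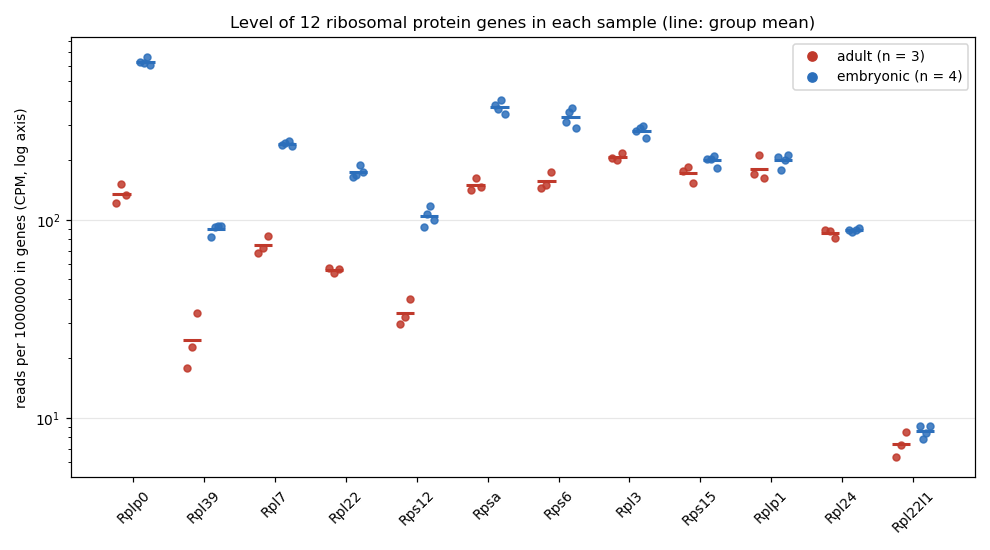
Reads per 1000000 reads in genes (log axis) in each adult sample (red, left) and embryonic sample (blue, right) for 12 members, with a line at each group mean. The groups are apart for the genes from Rplp0 to Rpl3, with Rplp0 at 122.2 to 151.0 in adult samples and 607.5 to 662.4 in embryonic samples, and overlap for Rps15, Rplp1, Rpl24 and Rpl22l1.

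Rps15, a small subunit protein near the decoding site, was at 176.1, 184.8 and 153.5 CPM in adult samples, against 203.5, 203.0, 209.4 and 183.3 CPM in embryonic samples. The groups overlapped narrowly, and the difference of -0.14 ± 0.08 was not called (SE, limma adjusted p = 0.166). Rps21 was at 13.40, 13.85 and 12.67 CPM in adult samples, against 20.22, 16.30, 15.10 and 15.25 CPM in embryonic samples. Its groups did not overlap, but the difference of -0.22 ± 0.11 was not called (SE, limma adjusted p = 0.0915). With each sample centred on its median gene, Rps15 and Rps21 were called lower (limma adjusted p = 0.00335 and 0.00470).

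Rpl24, a large subunit protein at a bridge between the subunits, was at 89.32, 87.56 and 80.76 CPM in adult samples, against 88.43, 86.82, 88.83 and 90.71 CPM in embryonic samples. The groups overlapped, and the difference of 0.04 ± 0.07 (SE, limma adjusted p = 0.655) was -0.14 with samples centred on their medians. Rpl3, which reaches towards the peptidyl transferase centre, had the smallest difference among the called members. It was at 204.6, 201.2 and 217.6 CPM in adult samples, against 279.5, 291.1, 299.4 and 259.3 CPM in embryonic samples, a difference of -0.35 ± 0.08.

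Per kilobase of transcript (GENCODE M21 lengths), the highest adult levels were 363.2 CPM per kb for Rplp1, 342.9 for Rps15 and 240.5 for Rpl8. In embryonic samples these genes had 400.3 CPM per kb for Rplp1, 399.6 for Rps15 and 481.4 for Rpl8. Rplp0 had 99.67 CPM per kb in adult samples and 463.5 in embryonic samples. The Spearman correlation of the levels per kb between adult and embryonic samples was 0.896 over 82 genes, which share libraries and lengths. Lengths are those of annotated transcripts and exceed the usual mRNA for a few members, so the levels per kb are rough.

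Rpl3l, a paralog of Rpl3 known from heart and skeletal muscle, was the member that rose. It had 8, 5 and 14 reads in adult samples, against 0, 1, 1 and 0 reads in embryonic samples. All adult samples were above all embryonic ones, at a very low level in each. Its difference was 2.38 ± 0.53 (SE, limma adjusted p = 0.00110). The 27 adult and 2 embryonic reads gave a ratio of 16.4 in reads per total, with a 95% interval of 4.11 to 141.9 that covers counting error only. Leaving out every row that is at its lowest value in any sample removed Rpl3l from the test, and no member was then called higher. The 8 markers of skeletal muscle and testis, of which 6 were tested and 3 were higher in adult, summed to 10.20 to 12.20 CPM in adult samples and 3.189 to 3.795 CPM in embryonic samples. Of the muscle genes, Acta1 (actin), with 154, 205 and 154 reads in adult samples and 31, 36, 42 and 33 reads in embryonic samples, and Myh4 (myosin), with 24, 27 and 20 reads in adult samples and 3, 8, 2 and 0 reads in embryonic samples, were higher in adult, and Ckm and Tnnt3 were not called. Of the germ cell genes, Ddx4 was higher, with 53, 39 and 47 reads in adult samples and 31, 23, 29 and 29 reads in embryonic samples. Prm1 was not called, with 4, 8 and 4 reads in adult samples and 2, 3, 2 and 2 reads in embryonic samples. Prm2 and Tnp1 were not tested, with 0 reads in every adult sample and with 2 reads of Prm2 in 1 embryonic sample. The part of these cells in the Rpl3l result was not tested.

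Among the other paralogs, Rpl10l, an autosomal copy of X-linked Rpl10 known from testis, had 0 reads in every sample. That allows up to 3 reads, or 0.127 to 0.132 CPM in adult samples and 0.133 to 0.163 CPM in embryonic samples, for counting error only. Rpl39l, also known from testis, had 0, 1 and 1 reads in adult samples and 0, 1, 0 and 0 reads in embryonic samples. Neither was tested, while the parent genes Rpl10 and Rpl39 were lower in adult by 1.10 and 1.79.

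Rpl22l1, the paralog of Rpl22, was at 6.327, 7.328 and 8.489 CPM in adult samples, against 9.109, 7.840, 8.375 and 9.149 CPM in embryonic samples. The groups overlapped and it was not called (difference -0.13 ± 0.12, SE, limma adjusted p = 0.337). Of the reads of the Rpl22 pair, 11.7% were from Rpl22l1 in adult samples and 4.70% in embryonic samples. Here and for the other pairs, such percentages are of reads and take no account of transcript length. Per kb, Rpl22l1 was at 13.72 CPM in adult and 16.02 CPM in embryonic samples, against 27.22 and 85.29 CPM for Rpl22. The difference between paralog and parent was 1.41 higher in adult, with no overlap between groups.

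Rpl7l1, a paralog of Rpl7, was at 28.28, 29.91 and 29.25 CPM in adult samples, against 47.11, 47.88, 46.25 and 41.03 CPM in embryonic samples, a difference of -0.54 ± 0.08. It made up 28.2% of the reads of its pair in adult samples and 15.8% in embryonic samples, and paralog minus parent was 1.07 higher in adult. Rps4y2, a copy of Rps4x, was at 14.44, 12.54 and 13.81 CPM in adult samples, against 19.90, 14.57, 18.73 and 24.26 CPM in embryonic samples. It made up 15.4% of its pair in adult samples and 8.26% in embryonic samples, and paralog minus parent was 1.04 higher in adult. The exon table places an exon of Rps4x at position 148303178 of chromosome 6 (mm9), the chromosome of Rps4y2. That exon held about 290, 275 and 298 reads in adult samples and 324, 295, 361 and 490 reads in embryonic samples, against 331, 296 and 314 reads of Rps4y2 in adult samples and 367, 329, 398 and 525 in embryonic samples. The Rps4x count may therefore hold reads of the Rps4y2 locus, and the values of this pair are uncertain.

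Rpl36al, an autosomal copy of X-linked Rpl36a, was at 38.79, 45.33 and 54.63 CPM in adult samples, against 63.22, 69.59, 75.99 and 50.83 CPM in embryonic samples. It overlaps Gm49383, it made up 60.5% of its pair in adult samples and 50.6% in embryonic samples, and paralog minus parent was 0.57 higher in adult. Rps27l, a copy of Rps27 known as a p53 target, was at 5.585, 5.507 and 3.783 CPM in adult samples, against 10.57, 9.701, 9.269 and 10.21 CPM in embryonic samples. It made up 21.4% of its pair in adult samples and 22.3% in embryonic samples, and paralog minus parent differed by -0.04.

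These changes were tested in 6 pairs. Paralog minus parent was higher in every adult sample than in every embryonic sample for Rpl3l, Rpl22l1, Rpl7l1, Rps4y2 and Rpl36al, each with p = 0.05714, the smallest that 3 against 4 samples allow (exact two-sided permutation test, adjusted 0.06857 over the pairs). Rps27l minus Rps27 gave p = 0.857 in the same exact test. No pair could pass 0.05 in this design. A paralog and its parent can share reads where their sequences are alike, which makes each single level uncertain. The calls of Rpl36al (limma adjusted p = 0.02) and Rps4y2 (limma adjusted p = 0.0212) as lower were lost without the filter on low values (0.158 and 0.127) and without a mean-variance trend (0.0864 and 0.0708). The Rpl36al call was also lost without adult replicate 1 (limma adjusted p = 0.113), embryonic replicate 2 (0.0609) or embryonic replicate 3 (0.0715). The Rps4y2 call was also lost without adult replicate 2 (limma adjusted p = 0.0679), embryonic replicate 1 (0.0606) or embryonic replicate 4 (0.0689).

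**Figure D4:**
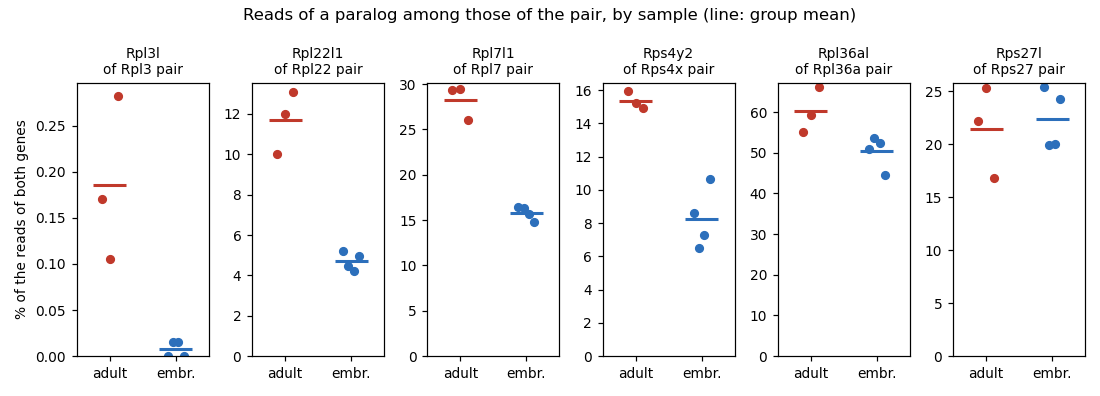
Percentage of the reads of a paralog and its parent gene that fell in the paralog, by sample, with adult samples (red) left and embryonic samples (blue) right, a line at each group mean and a separate axis for each pair. Rpl22l1 is at 11.7% in adult and 4.70% in embryonic samples as pooled shares, and the groups are apart in every panel except that of Rps27l.

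Samples of a group also varied together. In embryonic replicate 3, 78 of the 82 members were above their group mean (median deviation 0.12 on the deposited scale), while over all genes tested its median deviation was 0.01. In embryonic replicate 4, 14 of 82 were above the mean (median deviation -0.10). The adult samples deviated by medians of -0.04, 0.03 and 0.00. These shifts were small beside the median difference of -0.96 between the groups, and the number of members called lower was 75 or 76 when any 1 sample was left out.

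The mRNAs of the proteins that build and use ribosomes were described by lists grouped by function. Fau, which encodes the ribosomal protein S30 fused to a ubiquitin-like protein, was at 71.52, 72.06 and 72.31 CPM in adult samples, against 111.2, 120.4, 134.5 and 114.1 CPM in embryonic samples, and it fell by 0.64.

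Other mRNAs that carry a TOP element were lower in 17 of 17 tested genes, against 33.9% of all genes tested, with a median difference of -1.11. Among these, Hnrnpa1, an RNA-binding splicing protein, averaged 85.3 ± 5.20 CPM in adult samples and 464.3 ± 28.1 CPM in embryonic samples (SD, n = 3 and 4). Gnb2l1, which encodes the ribosome-bound scaffold RACK1, averaged 125.0 ± 8.20 CPM in adult samples and 497.4 ± 29.6 CPM in embryonic samples (SD, n = 3 and 4). This list shares genes such as Npm1, Eef1a1 and Eif4b with the lists below, so its count is not separate from theirs.

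Of the ribosome biogenesis genes, 59 were tested, with a median of -0.59. Of these, 47 were lower (79.7%, against 33.9% of all genes tested), 2 higher (3.39%, against 35.8%) and 10 not called. Ddx21, a nucleolar RNA helicase, fell by 1.83, and Npm1, a nucleolar chaperone, fell by 1.46. Sbds, which helps release Eif6 from new large subunits, averaged 60.7 ± 3.83 CPM in adult samples and 27.8 ± 1.11 CPM in embryonic samples, a difference of 1.18 (SE 0.08, limma adjusted p = 1.408e-08). Rrp12, which acts in export of pre-ribosomes, was higher by 0.39.

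Of 33 initiation factor genes, 25 were lower (75.8%, against 33.9% of all genes tested) and 3 higher (9.09%, against 35.8%). The median was -0.44. Eif4a1, the helicase of the cap-binding complex, fell by 1.62, and Eif4g2, a relative of its scaffold, fell by 1.37. Eif4h, which stimulates that helicase, was higher by 0.41, and Eif1ax, which takes part in start codon scanning, was higher by 0.34. The Eif1ax call was lost with samples centred on their medians (limma adjusted p = 0.169).

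Among 11 elongation and termination factor genes, 7 were lower (63.6%, against 33.9% of all genes tested) and 2 higher (18.2%, against 35.8%). The median was -0.44. Eef1a1, the elongation factor of growing cells that delivers tRNA, averaged 1375 ± 22.9 CPM in adult samples and 4178 ± 114 CPM in embryonic samples (SD, n = 3 and 4). Eef1a2, its paralog of mature neurons and muscle, averaged 1269 ± 88.7 CPM in adult samples and 147.0 ± 19.99 CPM in embryonic samples (SD, n = 3 and 4). The differences were -1.52 for Eef1a1 and 3.19 for Eef1a2. Eif5a2, the paralog of the hypusine-bearing factor Eif5a, was higher by 2.31, and Eef1b2, the exchange factor of Eef1a1, was lower by 1.31. Without the filter on low values, the Eef1a1 call was lost (limma adjusted p = 0.0527), as were those of Eif1ax (0.0573) and Eif2ak2 (0.0826).

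Among 18 genes that control translation or ribosome production, 7 were lower (38.9%) and 5 higher (27.8%), close to the shares of 33.9% and 35.8% among all genes tested. Mycn and Myc, transcription factors that promote ribosome production, averaged 7.65 ± 2.74 and 4.60 ± 0.750 CPM in adult samples, against 95.7 ± 10.5 and 26.3 ± 1.27 CPM in embryonic samples (SD, n = 3 and 4). Eif2ak2, a kinase that blocks initiation upon double-stranded RNA, was higher by 0.65, and Eif4ebp1, which binds the cap-binding protein, was higher by 0.50. The split of this list was 12 lower and 3 higher with samples centred on their medians, where the Eif4ebp1 call was lost (limma adjusted p = 0.0843).

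Mitochondrial ribosomal protein genes, whose products form the separate ribosome of mitochondria, had a median difference of 0.06. Of 76 tested, 10 were lower (13.2%, against 33.9% of all genes) and 29 higher (38.2%, against 35.8% of all genes), and with samples centred on their medians 23 were lower and 19 higher. They took 0.158% ± 0.000202 of reads in adult samples and 0.154% ± 0.00574 in embryonic samples (SD, n = 3 and 4, exact two-sided permutation test p = 0.229). Another 1427 tested coding genes had transcripts under 1000 bases, with a median of 0.21. Of these, 369 were lower (25.9%, against 33.9% of all genes) and 586 higher in adult (41.1%, against 35.8%). Centring on medians gave a median of -0.16 over all genes, a shift of 0.18, and a median of -1.14 over the members.

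**Figure D5:**
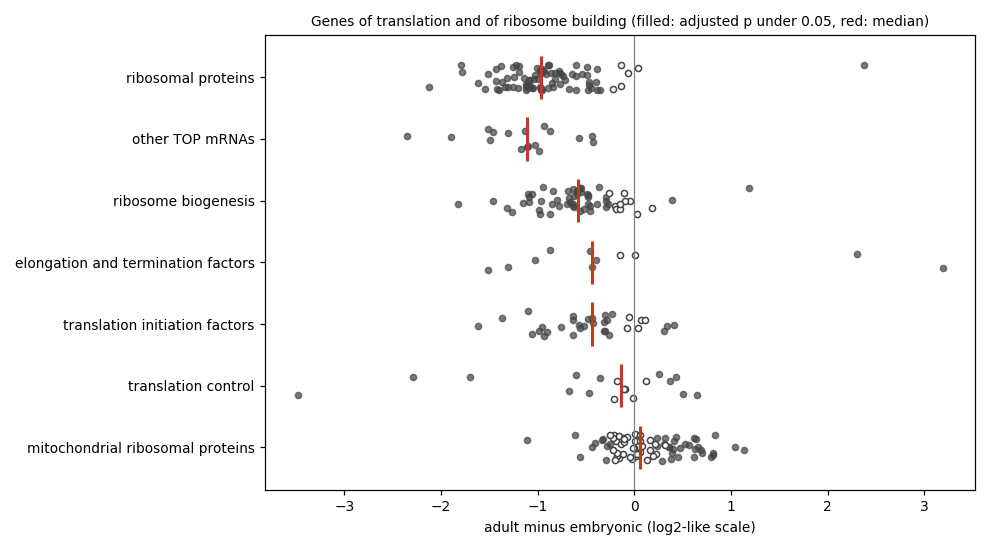
Adult minus embryonic difference on the deposited log2-like scale (x axis) for each tested gene of 7 lists (rows), with filled points for genes called at an adjusted p under 0.05, open points for the others and a red line at each list's median. The medians are -0.96 for the cytosolic ribosomal proteins, -1.11 for other TOP mRNAs and 0.06 for the mitochondrial ribosomal proteins.

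The exon table holds, for each exon and sample, a transformed value of 1 over a ratio, from which the share of a gene's reads in that exon was read as 100 over a whole number. Of the 76 member genes tested for exon usage, 24 were called (31.6%), against 28.8% of all genes tested (limma diffSplice, Simes adjusted over genes). Of the 329 member exons, 33 were called (10%), against 4.86% of all exons tested. Of these 33, 21 held a larger and 12 a smaller mean share in adult, and 18 held under 2% of the reads in both groups. The Rps12 exon at position 23504989 held 12.63% in adult and 11.81% in embryonic samples, but its tested difference had the sign of a smaller share. The calls are not all separate. Both called exons of Rpl35 had the same limma diffSplice adjusted p (0.001421) with opposite differences, as did both of Rps12 (0.02875). The count of called exons was 19 to 56 when 1 sample was left out: it was 56 without adult replicate 3, 20 without adult replicate 1, 21 without adult replicate 2, and 19 without embryonic replicate 2 or 3. The count of genes was 14 without embryonic replicate 3.

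The 5 exons with the smallest adjusted p each held at most 10% of their gene's reads in any sample, with positions in mm9 as the exon table names them. An exon of Rpl34 at position 130432147 of chromosome 3 held 10%, 10% and 7.69% of the gene's reads in adult samples, against 4.35%, 4.17%, 4.55% and 4.0% in embryonic samples (limma diffSplice adjusted p = 5.507e-05). In reads this was about 36, 37 and 34 in adult samples and 30, 37, 44 and 33 in embryonic samples, so the exon's own reads were alike while Rpl34 fell by 1.12. An exon of Rpl7a at position 26766526 of chromosome 2 held 1.97% ± 0.278 in adult samples and 0.734% ± 0.243 in embryonic samples (SD, n = 3 and 4, limma diffSplice adjusted p = 3.586e-06). A further Rpl7a exon, at position 26766327, held 0.761% ± 0.145 in adult samples and 0.221% ± 0.0963 in embryonic samples (SD, n = 3 and 4, limma diffSplice adjusted p = 0.000166). An exon of Rpl37 at position 5067287 of chromosome 15 held 2.80% ± 0.270 in adult samples and 1.09% ± 0.399 in embryonic samples (SD, n = 3 and 4, limma diffSplice adjusted p = 0.000565). An exon of Rplp0 at position 116009476 of chromosome 5 held 0.265% ± 0.0866 in adult samples and 0.0249% ± 0.00842 in embryonic samples (SD, n = 3 and 4, limma diffSplice adjusted p = 1.669e-06), from about 9, 11 and 5 reads in adult samples and 4, 3, 4 and 2 in embryonic samples. All 5 of these exons held larger shares in adult samples, while their genes were lower in adult. Their groups did not overlap, but the exons were picked by the adjusted p of this same comparison. The lack of overlap is therefore no separate result.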

How the data were processed

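Trizol-extracted cortical RNA was made into Illumina mRNA libraries, per the labels' protocols. Per the submitters' processing notes, which state no roles, the build was mm9 and the tools were TopHat 1.0.13 and Bowtie 0.12.7.0, SAMtools 0.1.7a, HTSeq 0.5.3p3 and CASAVA 1.7.1. The deposited gene values are variance-stabilized log2-like values made by the authors from read counts, with a tool not given in the sources used. Exon values were deposited as a score, described per the file headers as 1 over a ratio and also transformed. Each gene column is 1 smooth function of whole numbers, so reads were recovered: over 99.99% of values, and 100% of the members' values, lay within 0.1 of a whole number. Totals were 18444271 to 23606525 reads, and CPM uses these totals.

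The deposited values were fitted with limma 3.58.1 (R 4.3.3; lmFit, eBayes with trend, 3 adult against 4 embryonic samples), leaving out rows at the lowest value in more than 3 of 7 samples, with Benjamini-Hochberg adjustment over all 22828 genes and a threshold of 0.05. A difference of 1 is close to a 2-fold change for well expressed genes and understates that of genes with few reads. The scripts were tested on simulated data. The labels do not say that samples came from separate animals, so the p-values reflect sample-to-sample spread only, which may be technical. Replicates of a group differed by more than sampling noise (chi-square per gene 4.83 to 17.7), so each was counted.

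Members, gene lists and tests were chosen with earlier results of these data known. Named genes are the members called higher, the 8 that fell most, all paralogs with their parents, the 4 with the highest level per kb, the 3 with the smallest difference, those not called, the stalk genes, Rpsa and Rps6, and, of each list, the 2 called genes that differed most in each direction. Of these, 2 genes are not reported here, although counts and medians include them. Rpl11, Eif4ebp2 and the smallest called difference (Rpl3) are named in addition, after their values were seen. Alternatives were other filters, median centring, voom on recovered reads, no trend, a replicate block and leaving out each sample. Adding the reads of -ps copies was chosen after seeing the data. Promoter windows are in GRCm38.p6 and exon positions in mm9.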

Additional observations from a re-analysis of the deposited data

Results flagged for a closer look

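In 54 sets of 4 embryonic values (the named genes in CPM and the shares), 5 had a sample far from the other 3 by Dixon's gap ratio, and chance flags about 1 in 20. Rpl39 was at 81.65 CPM in embryonic replicate 1, against 91.78 to 93.49 CPM in the others. Rpl39l was at 0.0443 CPM in embryonic replicate 2, which is 1 read, against 0 in the others. Eef1a2 was at 176.8 CPM in embryonic replicate 3, against 134.0 to 139.8 CPM. Eef1b2 was at 324.1 CPM in embryonic replicate 3, against 255.5 to 265.5 CPM. Eif2ak2 was at 2.117 CPM in embryonic replicate 3, against 3.958 to 4.252 CPM.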

How the results depend on the processing

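The number of members lower in adult was 74 to 80 under every alternative run, and 75 or 76 when 1 sample was left out. The median difference of the members was -1.14 with samples centred on their medians, -1.06 with voom on recovered reads and -1.09 with voom after adding the reads of -ps copies. The number of members higher was 0 when rows at the lowest value in any sample were left out. With samples centred on their medians, 1 initiation factor was higher, translation control had 12 lower and 3 higher, and mitochondrial ribosomal proteins had 23 lower and 19 higher. With voom, 17 mitochondrial genes were lower, with or without the -ps copies. Rps15 and Rps21 were called lower by voom and by centring, and Rplp1 and Rpl22l1 by centring. The causes of these changes were not tested. Rps27l minus Rps27 was -0.20 to 0.14 when 1 sample was left out. Called member exons numbered 19 to 56, and called member genes 14 to 36, when 1 sample was left out.

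Same-numbered samples deviated with correlations of 0.00879, 0.0567 and 0.0405, against -0.0475 to 0.0617 for differently numbered samples. The same-numbered value was the highest for adult replicates 2 and 3, but not for adult replicate 1. All of these correlations were small, and the numbers were not taken to pair samples. With the replicate block, 76 members were lower, 24 exons and 16 genes were called for exon usage, the share differed by -0.699, and Rps27l minus Rps27 was 0.0066. With 3 against 4 samples, no exact test could pass 0.05, and genes with few reads, such as Rpl3l and Rpl39l, are limited by depth.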
